A study of Mus musculus with 4 samples.

Results

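The LIF, gp130 and STAT3 pathway was followed through 10 genes, which were taken by symbol (Lif, Lifr, Il6st, Jak1, Jak2, Stat3, Socs3, Pim1, Pim3 and Bcl3) from the 28250 genes listed for each library. All 10 were listed, and all 10 passed the filter on low values. TBV2, an embryonic stem cell (ESC) line from the mouse that depends on feeder cells, was kept with LIF on feeders and gelatin. The cells were held for 24 h with solvent or for 24 h with 5 µM MS-275, an inhibitor of class I histone deacetylases, with 2 RNA-seq libraries of poly(A) RNA in each group. Both groups were therefore exposed to LIF from the culture, and a feeder layer can itself carry Lif RNA. The study asked how the inhibitor changes gene expression in ESC. No source used here says whether the 2 libraries of a group came from separate cultures, so the p-values measure the spread between these libraries only. The tests used here share that spread between genes.

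LIF is a cytokine of the interleukin 6 family that keeps mouse ESC in the undifferentiated state. It binds its receptor, encoded by Lifr, which pairs with the shared signal chain gp130, encoded by Il6st. The receptor-bound kinases Jak1 and Jak2 then phosphorylate Stat3, which enters the nucleus and binds DNA. Among the genes it switches on, Socs3 encodes an inhibitor that closes the loop by blocking the kinases, Pim1 and Pim3 encode serine/threonine kinases that favour survival and self-renewal, and Bcl3 encodes a nuclear partner of NF-kappaB.

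The promoter sequences of 4 of these genes are shown because they are those for which a difference passed the test with replicates paired (below), and because STAT proteins bind a short palindrome that can be looked for in them. Each is the mm9 sequence of the 250 bases before the start of the gene's lowest-numbered coding transcript in GENCODE M1, written 5' to 3' on the gene's own strand, with a match to TTCNNNGAA in capitals. Socs3 lies on the minus strand, and its window is chr11:117830501-117830750. Other Socs3 transcripts are annotated from further upstream, so this window lies inside the annotated span of the gene. The Lif window is chr11:4157310-4157559 on the plus strand. The Jak1 window is chr4:100937888-100938137 on the minus strand, and the Jak2 window is chr19:29326068-29326317 on the plus strand.
Socs3: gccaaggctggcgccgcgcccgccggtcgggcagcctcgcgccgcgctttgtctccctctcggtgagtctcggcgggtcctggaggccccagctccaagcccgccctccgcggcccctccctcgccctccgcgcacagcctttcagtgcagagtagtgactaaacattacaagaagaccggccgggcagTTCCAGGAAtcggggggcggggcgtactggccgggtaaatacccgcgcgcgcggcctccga
Lif: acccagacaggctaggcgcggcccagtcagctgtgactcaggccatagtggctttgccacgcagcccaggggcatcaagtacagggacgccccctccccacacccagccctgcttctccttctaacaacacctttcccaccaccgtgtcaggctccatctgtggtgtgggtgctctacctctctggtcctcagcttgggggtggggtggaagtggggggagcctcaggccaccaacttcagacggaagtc
Jak1: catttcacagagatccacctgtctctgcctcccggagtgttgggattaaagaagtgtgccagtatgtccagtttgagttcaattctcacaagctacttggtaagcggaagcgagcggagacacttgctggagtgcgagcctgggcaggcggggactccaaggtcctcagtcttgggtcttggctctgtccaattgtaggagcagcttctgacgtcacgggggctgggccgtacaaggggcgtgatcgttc
Jak2: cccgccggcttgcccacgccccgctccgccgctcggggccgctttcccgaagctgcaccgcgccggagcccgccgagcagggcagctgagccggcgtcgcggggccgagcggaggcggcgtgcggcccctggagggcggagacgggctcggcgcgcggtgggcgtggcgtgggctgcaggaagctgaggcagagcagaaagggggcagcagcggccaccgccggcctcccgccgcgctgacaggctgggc

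The Socs3 window held 1 match, TTCCAGGAA, whose first base lay 61 bases before the start. None of the windows of the other 9 genes held TTCNNNGAA, a motif that reads the same on both strands. Of the windows of 22372 genes built in the same way, 6.75% held it. GGGCGG, the core of the GC box, was searched on both strands and was found in the windows of 7 of the 10 genes and in 41.0% of all windows. Pim1 had 7 such matches, Pim3 and Bcl3 had 3 each, Lifr and Socs3 had 2 each and Jak2 and Stat3 had 1 each, while Lif, Il6st and Jak1 had none. The windows differed widely in base composition. The share of G and C was 83.6% for Pim1, 82.8% for Lifr and 80% for Jak2, against 35.2% for Il6st and a median of 54.8% over all windows. These matches describe the letters of the windows alone.

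The measurements were of 2 kinds. The first is a normalized expression value per gene, a signal made by the authors with Genomatix whose formula the paper does not give. The second was counted here from the deposited alignments to mm9: the distinct positions at which alignments lay on the exons of a gene, stated as a position density, the number per kb of exon and per 1000000 exonic positions of the library. The 4 libraries held between 9785619 and 23467935 alignments and between 9122347 and 10973569 distinct positions, of which 63.1% to 68.9% lay on exons. In replicate 1, 53.2% (solvent) and 54.4% (MS-275) of the alignments repeated a position, against 0% in both libraries of replicate 2. The numbers of alignments therefore do not compare depth between replicates. Only the positions allow levels to be compared between genes. When log2 values and log2 positions were compared over 10123 genes (a description, since genes within a library are not independent), Pearson's r was 0.783 to 0.893 between the 2 files of a library and 0.860 to 0.923 between the values of a library and the alignments of its group's other replicate, which was the higher figure for each of the 4. Such a pair of files belongs to 1 group, so the comparison of groups is not touched, but replicates 1 and 2 of the values cannot be matched to replicates 1 and 2 of the positions, and for Lif, Lifr, Socs3, Pim1 and Bcl3 the replicates stood in opposite order in the values and in the positions of both groups. The replicates also differed in scale: the summed values of the libraries were 2490 (solvent) and 2493 (MS-275) for replicate 1, against 3629 and 4359 for replicate 2. Their range differed as well, measured as a top quantile of the values over the upper quartile of those of 0.001 or more. This ratio was 4.58 (solvent) and 4.79 (MS-275) for replicate 1, against 38.3 and 56.6 for replicate 2. The highest values thus stood closer to the rest in replicate 1, and fold changes of high genes can be smaller there.

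The labelled cell type was checked with 8 ESC marker genes, of which none was at 0. Their values summed to 5.17 and 22.5 with solvent and to 4.26 and 13.3 with MS-275 (replicates 1 and 2), which differ in the range of their values as given above. In both replicate pairs all 8 had lower values with MS-275, where 26.5% of all genes tested did. Dppa5a barely differed in replicate 1 (0.2933 with solvent and 0.2930 with MS-275). On the positions with replicates paired, Dppa5a was at 0.085 and Sox2 and Zfp42 at -0.08 each on the log2 scale, and none of these passed. Pou5f1, Esrrb, Utf1 and Tdgf1 were called lower there. In the values with replicates paired Pou5f1, Esrrb and Utf1 passed the test. A list of 10 fibroblast markers, fixed because of the feeder layer, summed to 0.376 and 0.514 with solvent and to 0.686 and 0.903 with MS-275. In the same fit 6 of the 10 were called higher with MS-275, led by the collagen gene Col1a1 at 2.41 on the log2 scale, and none lower, where 21% and 6.46% of all genes were called. Col3a1 and Dcn, also fibroblast genes, were lower in both replicate pairs (-0.52 and -0.72, adjusted p 0.206 and 0.0728 with the block) and were called lower with the block and quantile normalization (0.0153 and 0.0065). None of the 10 was below 0.001 in all libraries. Fewer cells of a type and less RNA per cell cannot be told apart in bulk RNA. The part that either list has in the values of the pathway genes was not tested.

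The values of Lif, the ligand, were lower with MS-275, and those of the kinases Jak1 and Jak2 and of the inhibitor Socs3 were higher, when libraries were paired by replicate. No difference of the 10 genes passed limma's test without pairing the libraries by replicate (Benjamini-Hochberg adjusted p under 0.05), where the values of each library stand on their own. Of all 20336 genes tested, 0.00492% were called higher and 0% lower in that fit, which is 1 gene and no gene, and at an unadjusted p under 0.05 it called none of the 10, against 14.6% of all genes higher and 2.77% lower. With the replicate number as a block, limma called Jak1, Jak2 and Socs3 higher and Lif lower, and the other 6 did not pass. In that fit the spread assigned to a gene is taken mostly from other genes. A small p-value there does not show that the gene's own replicate pairs were close. The same fit called 21% of all genes higher and 6.46% lower, so the 3 and 1 of 10 members called stand near the shares of all genes. The median log2 fold change was -0.13 over the 10 genes and 0.20 over all genes tested. The log2 fold changes are of value + 0.005 and so understate the change of the lowest genes.

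**Figure D1:**
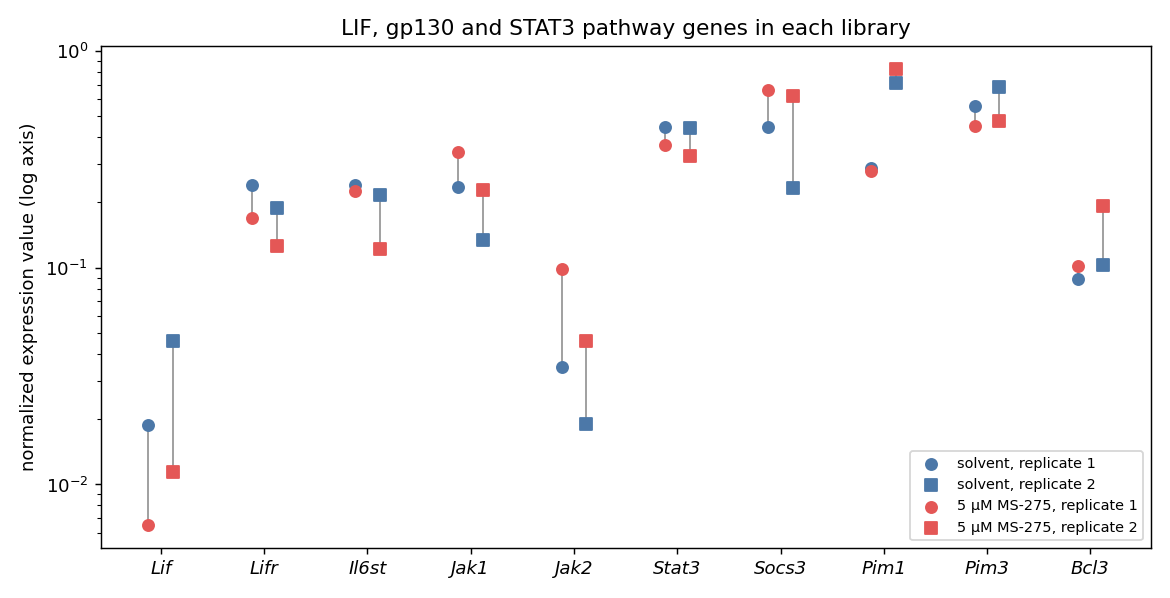
Normalized expression value (log axis) of each of the 10 genes in the 4 libraries, with solvent in blue and 5 µM MS-275 in red, circles for replicate 1, squares for replicate 2, and a line joining the libraries of a replicate. Within each replicate pair the red symbol lies below the blue one for Lif, Lifr, Il6st, Stat3 and Pim3, and above it for Jak1, Jak2, Socs3 and Bcl3, although the groups overlap for Il6st, Jak1 and Bcl3, while Pim1 differs mainly between replicates.

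Lif, the ligand, lies on chromosome 11 (chr11:4157560-4172517, plus strand, Entrez 16878). Its value was 0.0188 and 0.0457 with solvent and 0.00651 and 0.0115 with MS-275. Every MS-275 library was thus below every solvent library, and the mean went from 0.0323 ± 0.0190 (SD, n = 2) to 0.00898 ± 0.00349 (SD, n = 2), a ratio of solvent to MS-275 of 3.59. The log2 fold change was -1.34 with a 95% interval of -2.80 to 0.13 and an adjusted p of 0.345 by limma, and with the replicate block the adjusted p was 0.00521 with an interval of -2.01 to -0.67. Leaving out solvent replicate 2 gave -0.79, and leaving out solvent replicate 1 gave -1.88. On the exons, 307 and 72 distinct positions were counted with solvent and 72 and 27 with MS-275. The fibroblast genes Col3a1 (63 and 18 against 24 and 9) and Dcn (68 and 5 against 29 and 3) had more positions in replicate 1 and fewer with MS-275 as well. Most of the fibroblast list went the other way. In limma-voom on the positions with the block, 6 of its 10 genes were called higher with MS-275 and 1 lower, where 29.7% and 13.8% of all genes were. The part of these genes in the result for Lif was not tested. The position density was 10.2 and 2.51 against 2.95 and 0.845, so that the groups overlapped while each replicate was lower with MS-275. Limma-voom on the positions gave a log2 fold change of -1.71 with an adjusted p of 7.69e-06 when replicates were paired, and of -1.76 with an adjusted p of 0.169 when they were not.

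Lifr encodes the chain that binds LIF (chr15:7079559-7147489, plus strand, Entrez 16880). Its value was 0.242 and 0.188 with solvent and 0.169 and 0.126 with MS-275. The groups did not overlap, with the means at 0.215 ± 0.0381 and 0.148 ± 0.0310 (SD, n = 2 each). For the log2 fold change of -0.53 the adjusted p was 0.575 in limma and 0.0820 with the block. On the positions it was -0.48 and -0.49, with an adjusted p of 0.0597 by limma-voom and of 0.00112 with the block. The call for Lifr thus rests on the measure: the positions with the block passed, as did the values with the block once they were scaled by median ratio (log2 fold change -0.81, adjusted p 0.00782) or quantile normalized (-0.60, adjusted p 0.0187).

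Il6st encodes gp130, the signal chain shared by the whole cytokine family (chr13:113265216-113297068, plus strand, Entrez 16195). Its value was 0.240 and 0.217 with solvent and 0.225 and 0.122 with MS-275. MS-275 replicate 1 lay between the solvent libraries, so the groups overlapped, and the low mean of the values with MS-275 came from replicate 2. Its log2 fold change of -0.45 (adjusted p 0.693 by limma, 0.170 with the block) was -0.02 without MS-275 replicate 2 and -0.88 without MS-275 replicate 1. In position density the groups did not overlap, at 38.5 and 32.7 with solvent against 23.7 and 32.5 with MS-275, and the low library was replicate 1 (limma-voom with the block, log2 fold change -0.34, adjusted p 0.0547). Il6st was called lower in the values with the block and median-ratio scaling, at -0.73 with an adjusted p of 0.0214. The ratio of Lifr to Il6st within a library, 1.004 and 0.866 with solvent against 0.752 and 1.03 with MS-275, showed no separation of the groups.

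The kinases that sit on these receptors both had higher values with MS-275 in each replicate pair. Jak1 (chr4:100824972-100937887, minus strand, Entrez 16451), the main kinase of gp130 signalling, had values of 0.235 and 0.134 with solvent and 0.344 and 0.229 with MS-275. MS-275 replicate 2 was just below solvent replicate 1, so the groups overlapped, although MS-275 was the higher library of each replicate pair, by ratios of 1.46 and 1.71. The log2 fold change was 0.65 (95% interval -0.32 to 1.61, adjusted p 0.532 by limma), and with the block the interval was 0.18 to 1.11 and the adjusted p 0.0392. Scaling by median ratio brought it to 0.37 and, with the block, to an adjusted p of 0.228. On the exon positions the groups were apart, at densities of 18.5 and 17.2 with solvent and at 27.5 and 29.0 with MS-275, and limma-voom gave a log2 fold change of 0.67 with an adjusted p of 0.0177 without the block and of 0.000103 with it.

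Jak2 (chr19:29326318-29387570, plus strand, Entrez 16452), the second kinase of the complex, was at 0.0349 and 0.0190 with solvent and at 0.0985 and 0.0459 with MS-275. Both MS-275 libraries were above both solvent libraries, and the means were 0.0270 ± 0.0112 and 0.0722 ± 0.0372 (SD, n = 2 each), a ratio of 2.68. The log2 fold change was 1.23 with a 95% interval of -0.14 to 2.60 and an adjusted p of 0.354 by limma, and with the block the interval was 0.64 to 1.82 and the adjusted p 0.00404. Without MS-275 replicate 1 it was 0.72, and without MS-275 replicate 2 it was 1.74. Jak2 was called in every fit with the block and in the positions without it. There the exons held 185 and 174 distinct positions with solvent and 345 and 557 with MS-275, or densities of 5.32 and 5.25 against 12.2 and 15.1, with a log2 fold change of 1.37 and an adjusted p of 0.00810 by limma-voom, or 1.25e-06 with the block. The solvent libraries were nearly equal and the difference was well beyond their spread. The Jak2 value as a ratio of the Jak1 value of the same library was 0.148 and 0.142 with solvent and 0.287 and 0.200 with MS-275. Both MS-275 libraries were above the solvent libraries in this ratio, as they were in the ratio of the position densities (0.287 and 0.306 against 0.445 and 0.519), which was not tested.

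Stat3, the transcription factor that the kinases activate (chr11:100746412-100800854, minus strand, Entrez 20848), was at 0.447 and 0.439 with solvent and at 0.369 and 0.327 with MS-275. Both solvent libraries were above both MS-275 libraries, by a ratio of the means of 1.27, and the solvent libraries were close to each other (mean 0.443 ± 0.00572, SD, n = 2). At a log2 fold change of -0.35 (95% interval -1.32 to 0.62) it did not pass in limma, with an adjusted p of 0.800, nor with the block, at 0.295. Stat3 had position densities of 26.9 and 24.2 with solvent and at 23.3 and 22.5 with MS-275, and the log2 fold change was -0.16 (adjusted p 0.451 by limma-voom, 0.281 with the block). It was called lower only with the block and median-ratio scaling, at -0.63 and an adjusted p of 0.0480. The RNA level says nothing of the phosphorylation of the protein, which was not measured in these libraries.

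Socs3, the feedback inhibitor whose window held the palindrome shown above (chr11:117827393-117831361, minus strand, Entrez 12702), was at 0.448 and 0.233 with solvent and at 0.663 and 0.620 with MS-275. The MS-275 libraries were close to each other in value, though at percentiles of 99.2 and 93.3 of the genes tested in each. Both were above the solvent libraries, which differed more, and the means were 0.340 ± 0.152 and 0.642 ± 0.0303 (SD, n = 2 each), a ratio of 1.89. The log2 fold change was 0.98 with a 95% interval of -0.16 to 2.12 and an adjusted p of 0.381 by limma, and with the block the interval was 0.42 to 1.54 and the adjusted p 0.0118. Leaving out solvent replicate 2 gave 0.51, and leaving out solvent replicate 1 gave 1.44. The position density was 35.2 and 59.0 with solvent and 62.8 and 88.1 with MS-275, again with no overlap, and a log2 fold change of 0.73 with an adjusted p of 0.0891 by limma-voom, or 0.69 with an adjusted p of 6.5e-05 with the block. The ratio of the Socs3 value to the Stat3 value of the same library was 1.001 and 0.530 with solvent against 1.80 and 1.90 with MS-275. The groups did not overlap for either gene and differed in opposite directions, so this ratio had to separate them and is no further evidence.

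Of the other 3 targets none passed the test on the unscaled values, with or without the block. Pim1 (chr17:29627757-29632390, plus strand, Entrez 18712) was at 0.289 and 0.710 with solvent and at 0.279 and 0.828 with MS-275, so that the replicates stood much further apart than the groups. Its log2 fold change of 0.09 (adjusted p 0.98 by limma, 0.83 with the block) turned to -0.20 with median-ratio scaling and to -0.082 on the positions, so no direction can be given. Pim3 (chr15:88692616-88696150, plus strand, Entrez 223775) was at 0.557 and 0.682 with solvent and at 0.451 and 0.478 with MS-275, and both MS-275 libraries were below both solvent libraries. Its log2 fold change of -0.41 had an adjusted p of 0.80 in limma and of 0.254 with the block. With the block and median-ratio scaling it was called lower, at -0.69 with an adjusted p of 0.0429. Its position density, nearly the same within each group, was 57.2 and 57.0 with solvent and 46.5 and 46.6 with MS-275. The log2 fold change there was -0.29 and did not pass (adjusted p 0.202 by limma-voom, 0.0681 with the block). The ratio of Socs3 to Pim3 was 0.803 and 0.341 with solvent and 1.47 and 1.299 with MS-275. That it did not overlap between the groups was fixed by the separate values of these genes, which did not overlap either.

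Bcl3 (chr7:20393811-20408119, minus strand, Entrez 12051) was at 0.0885 and 0.103 with solvent and at 0.102 and 0.193 with MS-275. The groups overlapped, and the higher mean with MS-275 came from replicate 2. Limma gave a log2 fold change of 0.53 with an adjusted p of 0.64, or 0.113 with the block, and it was 0.084 without MS-275 replicate 2. In position density the MS-275 libraries stood at 16.6 and 9.55 and the solvent libraries at 11.1 and 9.48.

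**Figure D2:**
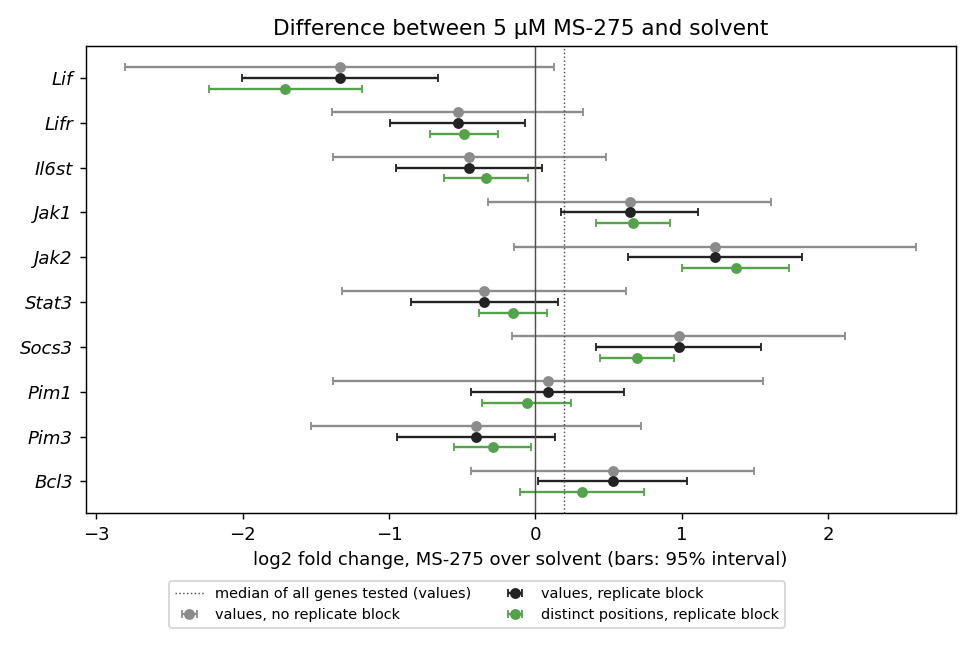
Log2 fold change of MS-275 over solvent for each gene with its 95% interval, in limma on the values without the replicate block (grey) and with it (black), and in limma-voom on distinct positions with the block (green), with a dotted line at the median of all genes tested in the values. The grey interval holds 0 for all 10 genes, and the black and green intervals of Lif, Lifr, Jak1, Jak2 and Socs3 leave it out before adjustment over all genes, as do the black interval of Bcl3 and the green ones of Il6st and Pim3, with Lif at -1.34 and Jak2 at 1.23 in the values.

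Counts over the whole list were set beside those of all genes. The groups did not overlap for 6 of the 10, with Jak2 and Socs3 higher with MS-275 and Lif, Lifr, Stat3 and Pim3 lower, where 32.3% of all genes tested were higher and 12% lower in this sense. The direction was shared by both replicate pairs for 9 of the 10, 4 higher and 5 lower, against 50% and 26.5% of all genes. Scaling by median ratio moved the median of all genes from 0.20 to -0.01 and that of the 10 genes to -0.41, and with the block it called 2 genes higher and 5 lower, against 16.4% and 13.8% of all genes. Lif, Lifr, Il6st, Stat3 and Pim3 were then the ones called lower, with Jak2 and Socs3 higher. Quantile normalization with the block called Jak1, Jak2 and Socs3 higher and Lif and Lifr lower, 3 and 2 of 10 against 14.4% and 14.6% of all genes. On the positions 2 genes, Jak1 and Jak2, were called higher and 0 lower without the block (15.1% and 5.08% of the 16994 genes tested there), and with the block the 3 and 2 genes called in the quantile normalized values passed, where 29.7% and 13.8% of all genes did.

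Relative to exon length, the 10 genes spanned a wide range of levels. In solvent Pim3 (position density 57.0 to 57.2), Pim1 (40.1 to 56.0) and Socs3 (35.2 to 59.0) were highest, and the wide ranges of Pim1 and Socs3 leave the order of these 3 unsettled. Il6st (32.7 to 38.5), Lifr (29.3 to 30.8), Stat3 (24.2 to 26.9), Jak1 (17.2 to 18.5) and Bcl3 (9.48 to 11.1) followed, the range of Il6st reaching into that of Socs3 and the others apart from their neighbours. Lif (2.51 to 10.2) and Jak2 (5.25 to 5.32) were lowest, and the wide range of Lif took in Jak2 and reached that of Bcl3. With MS-275, Socs3 (62.8 to 88.1) was above all others, and Jak1 (27.5 to 29.0) had moved above Stat3 (22.5 to 23.3) and above Lifr (18.8 to 24.1). Lif alone formed the low end, at 0.845 to 2.95, with Jak2 (12.2 to 15.1) now beside Bcl3 (9.55 to 16.6).

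Positions within introns, which count unspliced transcripts and any overlapping unannotated RNA, gave a second look at the same genes. For Jak1, 58 distinct intronic positions were counted in each solvent library and 137 and 145 with MS-275, or 8.39 and 8.81 against 24.4 and 19.7 per 1000000 exonic positions of the library. Jak2 had 28 and 17 against 59 and 62, or 4.05 and 2.58 against 10.5 and 8.44 per 1000000, and Socs3 had 28 and 25 against 64 and 52, or 4.05 and 3.80 against 11.4 and 7.08. The MS-275 libraries were above the solvent libraries for these 3 genes, as on their exons. The Lif introns held 15 and 4 positions with solvent and 4 and 1 with MS-275, too few for a comparison. For Lifr (20.4 and 22.5 against 13.2 and 16.9 per 1000000), Il6st (40.2 and 27.2 against 18.0 and 20.4) and Pim3 (7.81 and 7.59 against 3.74 and 4.63) the MS-275 libraries were below the solvent libraries, and for Stat3 (72.5 and 28.7 against 43.5 and 25.0) the groups overlapped. They also overlapped for Pim1 (27.9 and 11.5 against 23.4 and 5.31) and Bcl3 (16.5 and 14.7 against 19.3 and 13.7). Introns were counted for the 10 genes only, so no share of all genes can be set beside these results. The counts are mostly small and were not tested.

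**Figure D3:**
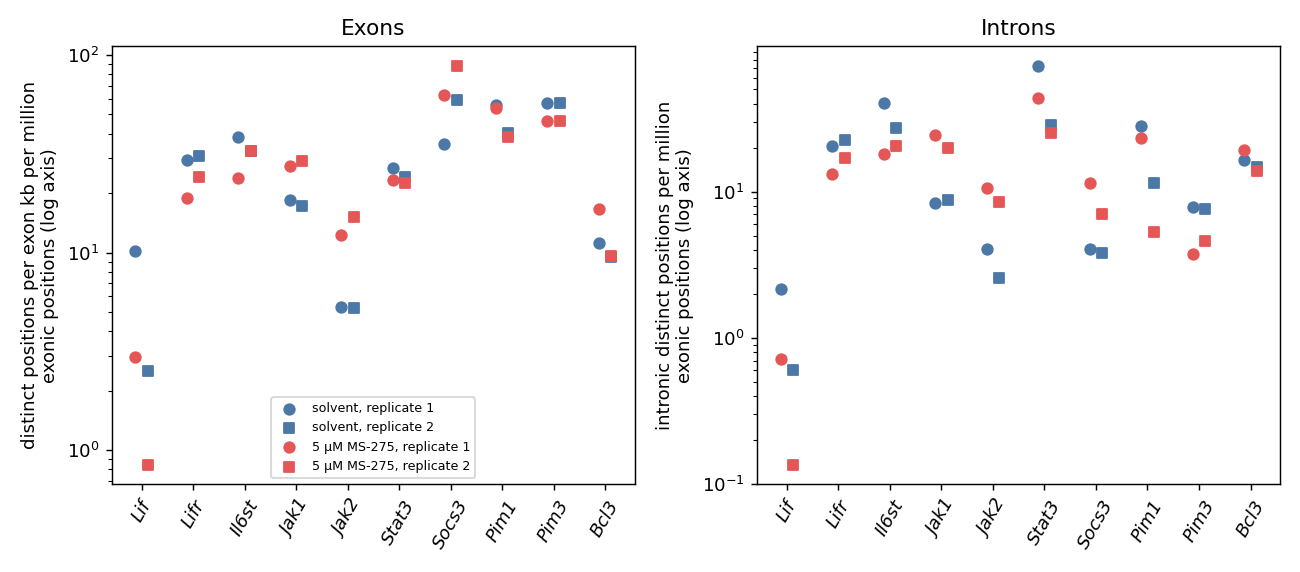
Distinct alignment positions of each gene on exons (left, per exon kb and per 1000000 exonic positions) and in introns (right, per 1000000 exonic positions), both on log axes, with symbols for group and replicate as in the plot of values. Jak1, Jak2 and Socs3 have both MS-275 libraries above both solvent libraries in both panels, and Lif reaches the lowest density on exons, 0.845 in 1 MS-275 library.

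The wider cytokine pathway was described with 58 other genes in 6 roles, of which 56 were listed and tested. Without the block limma called none of them higher or lower. At an unadjusted p under 0.05 there were 5 of the 56 higher and 3 lower, where 14.6% and 2.77% of all genes were. With the block it called 12 higher and 5 lower, beside the 21% and 6.46% of all genes given above. Their median log2 fold change was 0.17, close to that of all genes.

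Among 9 other ligands 2 were called higher and 1 lower with the block, where 21% and 6.46% of all genes were. Cntf, a neurotrophic cytokine that also signals through Lifr, had the largest fall on the log2(value + 0.005) scale, from 0.282 and 0.311 to 0.204 and 0.146 (log2 fold change -0.76, adjusted p 0.362 by limma, 0.0225 with the block). Osm and Clcf1, at lower values and named after these were seen, had larger ratios of the solvent to the MS-275 mean. Bases shared with exons of another gene were not counted. The Cntf bases that were counted held 0 to 3 distinct positions in a library, too few to be set beside its value. Il11, the cytokine bound by Il11ra1, was among the ligands called higher, at 1.10 with an adjusted p of 0.0104 with the block, a gene named after its values were seen. Its values were low, at 0.0021 and 0.00855 with solvent and 0.0104 and 0.0237 with MS-275. Its exons held 9 and 2 against 15 and 9 distinct positions, too few to be tested. With the block and quantile normalization it did not pass (adjusted p 0.177).

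All 5 receptors had higher values in both pairs, with a median of 0.70, and 2 were called with the block, where 50% of all genes were higher in both pairs and 21% were called. Il11ra1, the binding chain for interleukin 11, went from 0.0234 and 0.0277 to 0.0596 and 0.103 (log2 fold change 1.45, adjusted p 0.213 by limma, 0.00127 with the block). The other was Il6ra, at 1.16, named after its values were seen, and the smallest change was that of Il27ra at 0.10 (adjusted p 0.974, with the block 0.846). Of 7 tested kinases and STATs, Stat2, which carries type I interferon signals, was the one called with the block, at 0.74 (adjusted p 0.402 by limma, 0.0245 with the block), and Stat6 was lowest at -0.52 (adjusted p 0.733, with the block 0.0889).

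The largest rise and the largest fall of the wider list by log2 fold change were both in the feedback family of Socs3. Socs1, which also blocks JAK kinases directly, was at 0.00754 and 0.0105 with solvent and at 0.0743 and 0.143 with MS-275, a log2 fold change of 2.96 (adjusted p 0.0645 by limma, 6.99e-06 with the block). Socs2, best known for its restraint of growth hormone signalling, was at 0.418 and 0.836 with solvent and at 0.135 and 0.102 with MS-275, a log2 fold change of -2.29 (adjusted p 0.0607 by limma, 3.55e-05 with the block). Both passed in limma-voom on the positions without the block, Socs1 at 2.98 with an adjusted p of 0.019 and Socs2 at -1.85 with an adjusted p of 0.00525. The other 12 genes of this role did not pass with the block. Of these, Pias2 and Pias3, of a family of STAT inhibitors and named after their values were seen, were called lower with the block after median-ratio scaling (adjusted p 0.0122 and 0.00974) and after quantile normalization (0.00498 and 0.0196), and Pias2 also in limma-voom without the block, at -0.55 with an adjusted p of 0.0317.

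Of 4 adaptors, Grb2, which links receptors to RAS, was called higher with the block (0.75, adjusted p 0.436 by limma, 0.0299 with the block), and Sos1 was lowest at -0.09 (adjusted p 0.969, with the block 0.809). Of 17 tested genes that respond to LIF or STAT3 in ESC, 5 were called higher and 3 lower with the block, where 21% and 6.46% of all genes were. The 5 were Egr1, Fos, Ier3, Pim2 and Zfp36, mostly immediate early or stress-responsive genes, and the 3 were Ccnd1, Tbx3 and Tfcp2l1, where Tbx3 and Tfcp2l1 encode factors that sustain the naive state and Ccnd1 encodes cyclin D1. All but Egr1 and Ccnd1 were named after their values were seen. Egr1 was at 0.0139 and 0.926 with solvent and at 0.159 and 5.08 with MS-275, so its replicates differed far more than its groups, and its adjusted p was 0.502 by limma and 2.23e-06 with the block at a log2 fold change of 2.78. Ccnd1 was at 0.254 and 0.301 with solvent and at 0.0906 and 0.0658 with MS-275, with no overlap, a log2 fold change of -1.78 and an adjusted p of 0.0655 by limma or 6.00e-05 with the block. Tfcp2l1, a STAT3 target in ESC, was at -1.02 with an adjusted p of 0.0105 with the block, and Tbx3 at -1.41 with 0.00137. Pim2, the third gene of the PIM family, was at 1.29 with 0.000631, while neither Pim1 nor Pim3 was called. Klf4, another STAT3 target of the naive network, was at -0.44 with 0.171.

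**Figure D4:**
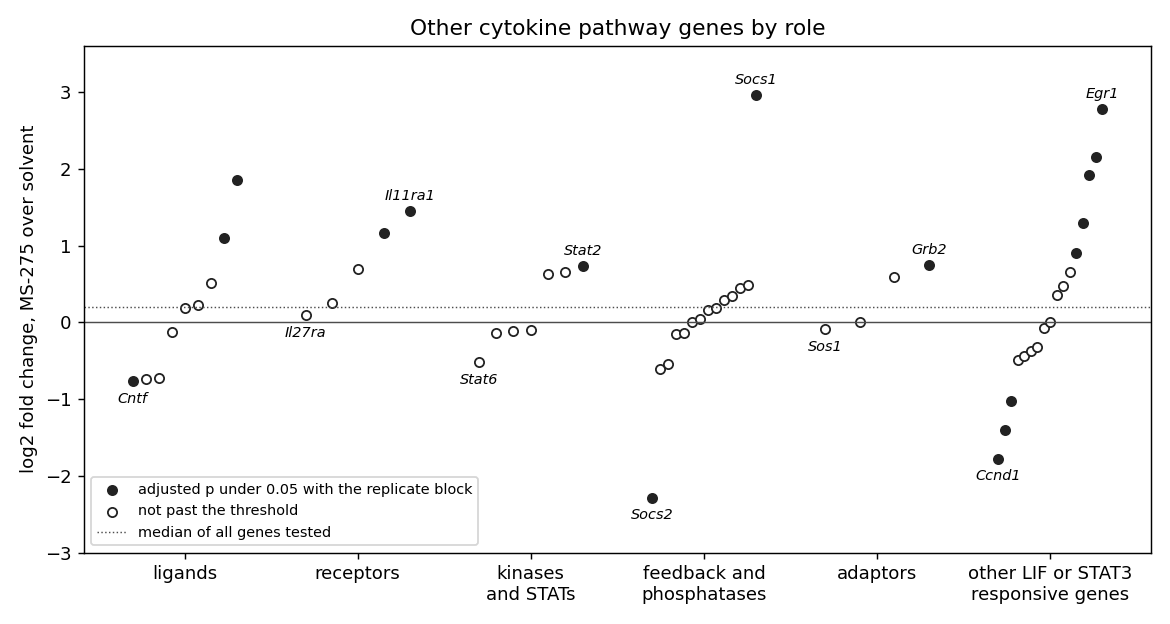
Log2 fold change of MS-275 over solvent in the values for the 56 other cytokine pathway genes tested, sorted within each role, with filled circles for an adjusted p under 0.05 in limma with the replicate block and a dotted line at the median of all genes (0.20). Socs1 and Egr1 lie highest, Socs2 and Ccnd1 lowest, and the names mark the largest rise and the largest fall of a role, with the fall alone named for ligands.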

How the data were processed

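RNA-seq values and alignments of 4 libraries were used, grouped by their titles, with the library called a duplicate taken as replicate 2. As deposited by the authors, the values are a normalized expression signal made with Genomatix from reads mapped to mm9; the aligner, its version and the formula are not given in the sources used here. They are not counts. The tables of ratios between libraries hold the authors' own comparison and were not used. The paper names DMSO as its vehicle and the control alignments are labelled ETOH, hence solvent.

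A gene was kept where 2 or more libraries had values no lower than 0.001 (20336 of 28250), and the kept genes were fitted with limma 3.58.1 in R 4.3.3, by lmFit and eBayes with a trend on log2(value + 0.005). P-values are two-sided and were adjusted over all genes tested by the Benjamini-Hochberg method, and the threshold was 0.05. Distinct alignment positions, with repeated alignments counted once, were assigned to GENCODE M1 exons of a single gene without regard to strand. Genes with at least 10 positions in at least 2 libraries (16994) were fitted with limma-voom. Reads of overlapping or near-identical genes cannot be told apart in either measure. Tables were handled with Python 3.11.15, numpy 2.4.6 and pandas 2.3.3, and drawn with matplotlib 3.10.9. Limma without and with the block and limma-voom without it were run on simulated data. Recovery of the changed genes was required only of limma with the block and of limma-voom without it. Limma-voom with the block was not simulated.

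The replicate number was used as a block because headers of the authors' tables mark replicate 1 as old in solvent and in MS-275 alike. As a check, deviations from the group mean were correlated between same-numbered libraries, with r = 0.764 for values (20336 genes) and r = 0.551 for positions (16994 genes).

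The members, the lists of other pathway genes and of cell type markers, and the tests were chosen with earlier results of these data known. The text names all 10 members and, from each role, the tested gene with the largest rise and that with the largest fall in the fit without the block, except that 1 gene is not reported here. Of 58 other pathway genes, 55 matched by symbol and 1 (Tfcp2l1) by Entrez identifier; Jak3 and Junb were not used here. Alternatives were other pseudocounts and filters, median-ratio and quantile scaling, the replicate block, the positions, and each library left out.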

Additional observations from a re-analysis of the deposited data

How the results depend on the processing

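Without the block, none of the 10 pathway genes passed in the values under any pseudocount, filter or scaling tried, and limma-voom on the positions called 2 higher (Jak1 and Jak2) and 0 lower. The replicate block gave 3 higher and 1 lower, with median-ratio scaling 2 and 5, with quantile normalization 3 and 2, and on the positions 3 and 2. The shares of all genes called in these fits are given above beside the same counts. The median log2 fold change of the 10 genes was -0.41 with median-ratio scaling, with or without the block, -0.16 with quantile normalization and -0.11 on the positions with the block, and -0.34 to -0.00386 with each library left out. Pim1 changed direction, to -0.20 with median-ratio scaling with or without the block, -0.082 on the positions, -0.059 there with the block, -0.56 without solvent replicate 1 and -0.69 without MS-275 replicate 2, over a range of -0.69 to 0.86 with a library left out. The causes were not tested.

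Of the other pathway genes, a mean value of at least 0.01 (52 tested) gave 2 higher and 2 lower. With 56 tested, the block gave 12 and 5, where 21% and 6.46% of all genes were called. The block with median-ratio scaling gave 9 and 13 (16.4% and 13.8% of all genes), and with quantile normalization 10 and 11 (14.4% and 14.6%). The positions, with 51 tested, gave 4 and 5 (15.1% and 5.08%), and there with the block 14 and 8 (29.7% and 13.8%). Leaving out a library gave 0 to 3 higher (3 without solvent replicate 2) and 0 to 1 lower (1 without solvent replicate 1). Over the 10 genes and all alternatives, 141 results kept their direction and side of the threshold, 23 newly passed it and 6, all of Pim1, changed direction.

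Where 1 library is left out, the lone library of its group is assumed to vary as the others do, and the difference between replicates enters the fold change. The block could not be combined with a library left out, since no residual degree of freedom remains. With 2 libraries a group, the fit without pairing has wide intervals, and the number of reads behind a Genomatix value is unknown.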

Other observations

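Markers of other cell types were read in the same fits. The 6 primitive endoderm markers summed to 0.135 and 0.0407 with solvent and to 0.239 and 0.0772 with MS-275 (replicates 1 and 2). In both replicate pairs the MS-275 library had the higher value for all 6, where 50% of all genes tested were higher in both pairs. Sox17, a transcription factor of endoderm, had a log2 fold change of 1.33 (limma adjusted p 0.231, with the replicate block 0.00266), and Pdgfra, a receptor of the same lineage, of 1.06 (0.498, with the block 0.0176). The other 4 did not pass with the block, where 21% of all genes were called higher. With the block and quantile normalization Sox17 passed (adjusted p 0.0251) and Pdgfra did not (0.201). Gata4, Gata6 and Sox7 turned to -0.09, -0.16 and -0.24 there. Of 4 blood cell markers, Hbb-b1 was listed at 0 in all libraries, and Cd3e was called lower with the block, at -1.09 (adjusted p 0.0196). Ptprc went the other way, from 0 in both solvent libraries to 0.00232 and 0.00111 with MS-275, and did not pass with the block (adjusted p 0.131). The values of Cd68 overlapped between the groups (-0.15, adjusted p 0.660 with the block). The list summed to 0.175 and 0.151 with solvent against 0.136 and 0.118 with MS-275.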
